A study of Drosophila melanogaster with 8 samples.

Results

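The respiratory chain sits in the inner mitochondrial membrane and is built from proteins of both the nuclear and the mitochondrial genome. Complex I takes electrons from NADH, complex III passes them from ubiquinol to cytochrome c, and complex IV hands them to oxygen. All of them pump protons, and complex V, the ATP synthase, uses the returning protons to make ATP. Enterocytes, the absorptive cells of the fly midgut, are rich in mitochondria, while the intestinal stem cells (ISCs) that replace them are generally thought to rely less on respiration. The genes described here are nuclear genes for subunits of complexes I, III, IV and V. They were chosen by name, not by any measured value: symbols that start with ND-, UQCR-, COX or ATPsyn, together with ox, RFeSP, Cyt-c1, blw, levy and cype. This gave 56 of the 7671 genes with values, with 31 in complex I, 8 in complex III, 7 in complex IV and 10 in complex V. Subunit genes without values, or with names outside this rule, are not counted. All 56 were found by their gene ID in the release 6 annotation of the D. melanogaster genome (BDGP6), where 9 lie on X, 13 on 2L, 13 on 2R, 11 on 3L, 8 on 3R and 2 on chromosome 4.

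The intestines came from mated females that were placed on calorie restriction at 7 days of age and dissected after 24 hours. Their fly food was at 0.25 of the usual strength. The food held 0.1 M N-acetyl-D-glucosamine (GlcNAc), which feeds the hexosamine biosynthesis pathway (HBP), or no GlcNAc in the controls. There were 4 libraries of each, described as independent samples taken in parallel, and p-values measure the spread between these samples. Flies of both groups carried 1 copy of tub-GAL4 and of the GAL80 repressor on FRT82B, with FRT82B on the other chromosome, as well as hsFLP and UAS-mCD8::GFP, the tools of the MARCM system for marked clones. GAL4 and GAL80 are driven by the tubulin promoter, which is active in all cells. No target gene was mutated or knocked down in either group. Some label fields name glucosamine or whole larvae, while the titles, the tissue field and the protocols give GlcNAc and dissected intestine, which are followed here.

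The libraries held 9281492 to 10326189 reads on the listed genes on GlcNAc and 8839877 to 9838415 in controls. The values are log2 CPM, which give the reads of a gene relative to the scaled size of its library, and CPM below are these values taken off the log scale. Across all genes 506 of 7671 were lower on GlcNAc and 671 were higher at an adjusted p under 0.05 (limma, Benjamini-Hochberg over all genes), which is 6.6% and 8.75% of the genes tested. All 4 GlcNAc libraries lay below all 4 control libraries for 709 genes, or 9.24%. Of the marker genes of other cell types, none of the 6 listed for ovary and none of the 6 for testis were among the genes with values. Markers of all 4 gut cell types listed were present, though only 8 of 10 for enterocytes and 9 of 10 for enteroendocrine cells. Genes without values therefore do not show that a tissue was absent.

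The nuclear respiratory genes were lower together on GlcNAc. Of the 56 genes, 41 fell at an adjusted p under 0.05, or 73.2% beside 6.6% of all genes, and none rose, also at an unadjusted p under 0.05. The median log2 fold change of GlcNAc over control was -0.30, with quartiles of -0.35 and -0.25, whereas the median of all genes was 0.01. A median of this size is a fall of 18.9% in CPM. For 47 of the 56 genes, all 4 GlcNAc libraries lay below all 4 control libraries, or 83.9% beside 9.24% of all genes. The 41 genes that passed the test are all among these 47.

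**Figure D1:**
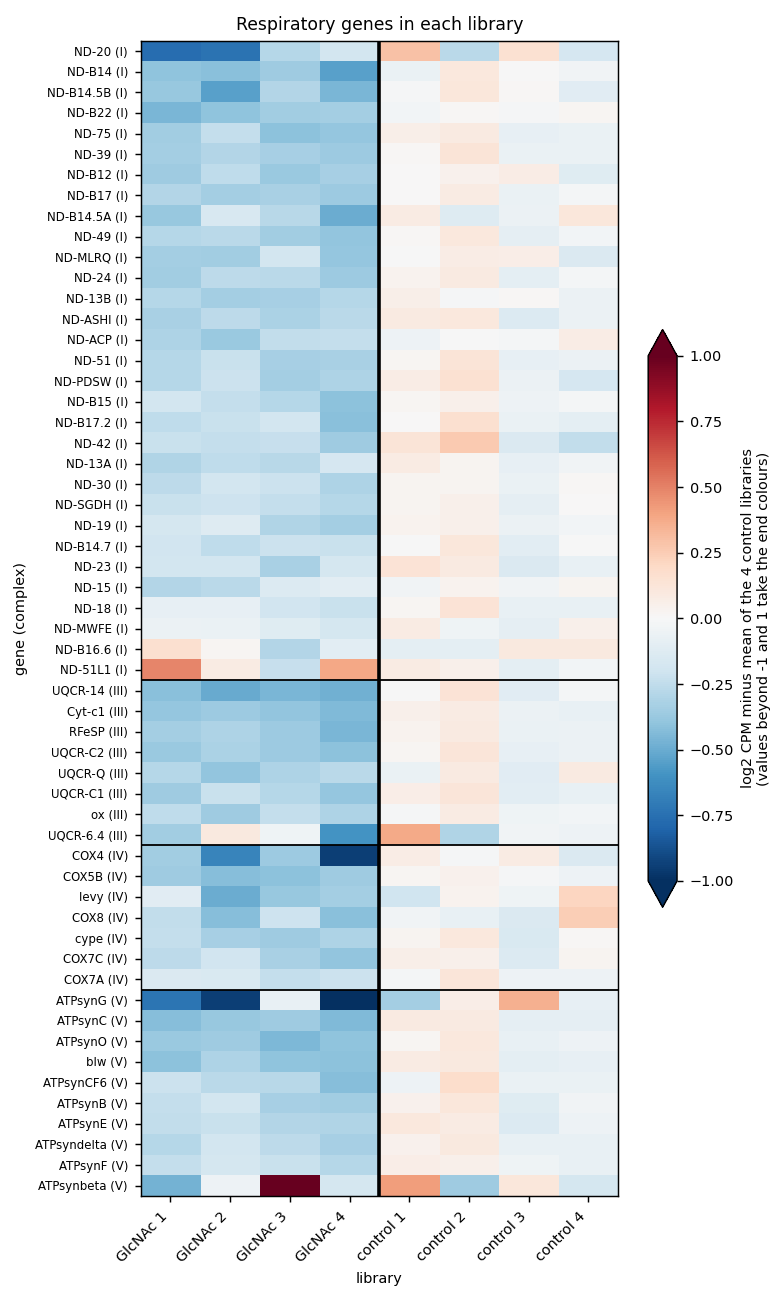
Each row is 1 of the 56 respiratory genes, grouped by complex, and each column a library, with the 4 GlcNAc libraries left of the 4 controls. Colour gives log2 CPM minus the mean of the controls. Most rows are blue in all GlcNAc libraries and pale in all controls. Several of the mixed rows, such as ATPsynbeta, ND-51L1 and UQCR-6.4, are genes with few reads, while ND-MWFE and ND-42 also overlap with means of 44.3 and 28.0 CPM.

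The summed level of the 56 genes was 8918, 9190, 8860 and 8665 CPM in the GlcNAc libraries, against 11539, 11967, 10580 and 10741 CPM in the controls. Every GlcNAc library thus lay below every control, with means of 8908 ± 217 CPM on GlcNAc and 11207 ± 658 CPM in controls (SD, n = 4 each). The ratio of the means was 0.795. These transcripts made up 0.867 to 0.919% of the scaled library on GlcNAc and 1.06 to 1.20% in controls.

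The genes with the lowest means did not pass the test, but a high mean did not ensure a pass, as for COX7A at 399 CPM. A mean of 12 CPM over all libraries was taken as a dividing line after the values had been seen. It lies in the gap between ND-B14.5A at 10.53 CPM and ND-B22 at 16.98 CPM. ND-B22 has the lowest mean of the genes that passed, so the place of the line fixed that no gene below it passed. Of the 47 genes above it, 41 fell, all 47 had a negative fold change, and log2 fold changes ranged from -0.47 to -0.11 with standard errors of 0.05 to 0.11. In 40 of these 47 genes the log2 fold change was between -0.40 and -0.20. None of the 9 genes below the line passed the test, and their log2 fold changes ranged from -0.73 to 0.18 with standard errors of 0.11 to 0.33. These 9 genes held 9 to 121 reads per library, and the largest of their standard errors exceeded the median fall of the group.

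**Figure D2:**
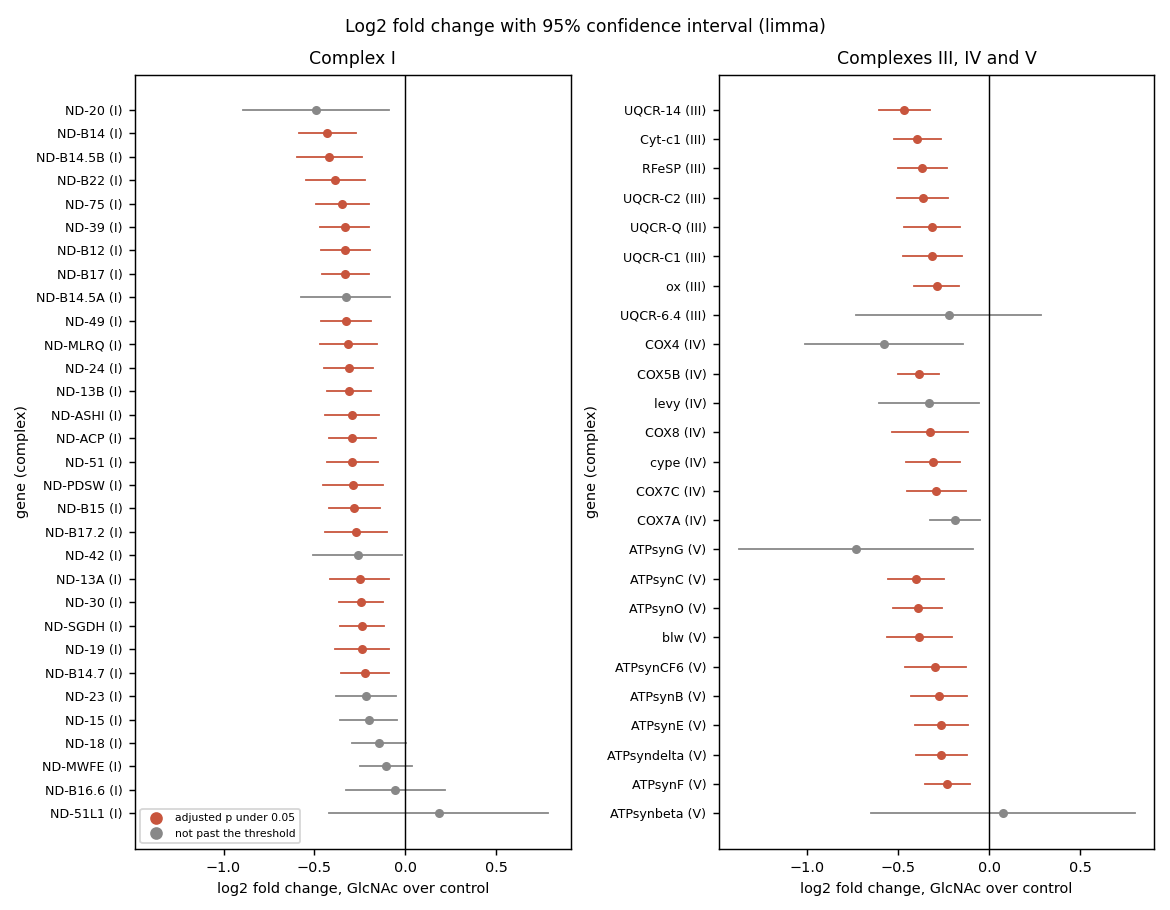
Points are log2 fold changes of GlcNAc over control for each gene and lines their 95% confidence intervals from limma, with complex I on the left and complexes III, IV and V on the right. Red marks the 41 genes with an adjusted p under 0.05. The red points keep to a narrow band around the median of -0.30, and the wide grey intervals belong mostly to the genes under 12 CPM.

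Complex I is the largest complex of the chain and has a hydrophilic arm, where NADH is oxidised (N module) and ubiquinone reduced (Q module), and a membrane arm that pumps protons (P module). Its subunits are assigned to these modules here by their mammalian counterparts. Of the 31 complex I genes, 22 fell, none rose, and the median log2 fold change was -0.29. For 26 of them the GlcNAc libraries lay below all controls. In the N module 5 of 7 genes fell with a median of -0.29, in the Q module 5 of 7 with a median of -0.32, and in the P module 10 of 14 with a median of -0.27. The 7 nuclear core subunits, among which are those that hold the flavin and the iron-sulfur clusters, had 5 genes that fell and a median of -0.31, and the 22 accessory subunits had 16 and a median of -0.28. The modules and the kinds of subunit are set side by side and were not tested against each other.

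Most of the core subunits of the hydrophilic arm fell. ND-75, the largest core subunit and a carrier of iron-sulfur clusters, had 295, 317, 281 and 287 CPM in the GlcNAc libraries, against 390, 399, 354 and 357 CPM in controls. ND-51, which holds the flavin that accepts electrons from NADH, had 303, 316, 294 and 296 CPM on GlcNAc, against 375, 403, 348 and 354 CPM in controls. The groups did not overlap for either gene, and the log2 fold changes were -0.35 ± 0.07 for ND-75 and -0.29 ± 0.06 for ND-51 (SE, adjusted p = 0.0059 and 0.0119, limma). ND-24, the partner of ND-51, also fell, by 0.31 on the log2 scale, as did ND-49 and ND-30 of the Q module, by 0.32 and 0.24. ND-23, a core subunit that carries iron-sulfur clusters on the path to ubiquinone, had a log2 fold change of -0.22 and an adjusted p of 0.0837 (limma), although its GlcNAc libraries also lay below all controls. ND-75, ND-51 and the other core subunits named here were picked for their role, with their values known.

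Among the genes of complex I with an adjusted p under 0.05, the accessory subunits ND-B14 and ND-B14.5B had the most negative fold changes. ND-B14, the counterpart of a mammalian Q module subunit of the LYR family, had 26.1, 25.8, 26.9 and 23.7 CPM in the GlcNAc libraries, against 32.9, 37.0, 34.4 and 33.6 CPM in controls. Its log2 fold change was -0.43 ± 0.07 (SE, adjusted p = 0.003, limma). ND-B14.5B, a subunit of the membrane arm at chr2L:3144953-3145848, had 25.8, 23.0, 27.4 and 24.4 CPM on GlcNAc, against 33.3, 36.3, 33.8 and 31.0 CPM in controls. The log2 fold change was -0.42 ± 0.08 (SE, adjusted p = 0.00619, limma). The groups were separate for both genes, but each CPM value rests on 220 to 330 reads.

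The 9 complex I genes that did not pass the test were of several kinds. ND-20, the core subunit next to the ubiquinone site, had 5.30, 5.37, 7.39 and 7.89 CPM on GlcNAc, against 11.0, 7.44, 9.97 and 7.99 CPM in controls. Its log2 fold change of -0.49 ± 0.18 was the most negative of the complex, but the groups overlapped and the adjusted p was 0.101 (SE, limma). ND-B16.6, the fly counterpart of GRIM-19, had 10.6, 9.65, 7.80 and 8.85 CPM on GlcNAc, against 8.91, 8.89, 10.2 and 10.2 CPM in controls. The groups overlapped and the log2 fold change was -0.05, with a 95% interval of -0.33 to 0.22 (adjusted p = 0.828, limma). Without GlcNAc replicate 3 the sign turned, to a log2 fold change of 0.024.

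ND-MWFE and ND-18 stood out among the better-covered genes for the size of their fold change, a choice made after their values were seen. ND-MWFE, a small membrane arm subunit, had 44.0, 43.9, 42.0 and 40.6 CPM on GlcNAc, against 48.6, 44.6, 43.0 and 47.5 CPM in controls. Its groups overlapped and its log2 fold change was -0.11, with a 95% interval of -0.25 to 0.04 (adjusted p = 0.339, limma). ND-18, the counterpart of mammalian NDUFS4, had 98.3, 98.1, 90.9 and 89.2 CPM on GlcNAc, against 105.2, 114.1, 98.6 and 98.9 CPM in controls. Its lowest control lay just above its highest GlcNAc library, and its log2 fold change was -0.15 ± 0.07 (SE, adjusted p = 0.193, limma). In the Ensembl annotation used here, exons of ND-MWFE overlap those of Nrk on the same strand by 128 bases. The authors mapped reads to the FlyBase genome, and whether the overlap touched the deposited values was not tested. ATPsynC shares 142 bases with other annotated transcripts on its strand, and ND-15, ND-MLRQ and UQCR-Q share 2 to 20 bases.

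The name rule also takes in paralogs marked by an L, which in flies are typically expressed in the testis. ND-51L1, a paralog of ND-51, was the only such gene with values. It had 1.59, 1.20, 0.968 and 1.48 CPM on GlcNAc, against 1.20, 1.17, 1.06 and 1.11 CPM in controls, which is 9 to 15 reads per library. The groups overlapped, and the fitted log2 fold change was 0.18 with a 95% interval of -0.42 to 0.78 (adjusted p = 0.725, limma). ND-MLRQ is counted under complex I by its name, although its mammalian counterpart NDUFA4 has been placed in complex IV. It fell by 0.31 on the log2 scale (adjusted p = 0.0139, limma).

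Of the 8 genes of complex III, 7 fell, and the median log2 fold change was -0.34. Complexes share their libraries and were not tested against each other. UQCR-14, a small subunit that is the counterpart of mammalian UQCRB, lies at chrX:16286288-16286988. It had 221.1, 207.9, 215.2 and 211.1 CPM in the GlcNAc libraries, against 295.3, 324.1, 272.9 and 291.3 CPM in controls. Its GlcNAc libraries were close to each other and all below the lowest control. The log2 fold change was -0.47 ± 0.06 (SE, adjusted p = 0.000947, limma), the most negative of all respiratory genes that passed the test.

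The nuclear catalytic subunits of complex III carry a haem and its iron-sulfur cluster. Cyt-c1, the haem protein that passes electrons to cytochrome c, lies at chr3L:5360211-5362798 and had 302.8, 307.2, 300.1 and 291.8 CPM on GlcNAc, against 408.9, 418.6, 378.9 and 376.5 CPM in controls. RFeSP, the Rieske iron-sulfur protein, lies at chr2L:1612429-1614160 and had 192.9, 196.9, 189.6 and 177.6 CPM on GlcNAc, against 249.5, 260.3, 233.3 and 233.8 CPM in controls. Neither gene had overlapping groups, and their log2 fold changes were -0.40 ± 0.06 and -0.37 ± 0.06 (SE, adjusted p = 0.00144 and 0.00283, limma). The core proteins UQCR-C1 and UQCR-C2, which stem from a family of processing peptidases, fell by 0.31 and 0.36 on the log2 scale.

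Among the small subunits of complex III, ox and UQCR-Q fell by 0.29 and 0.31 on the log2 scale. The gene ox had 89.9, 83.8, 90.8 and 86.7 CPM on GlcNAc, against 106.2, 113.6, 104.3 and 105.1 CPM in controls, with no overlap (adjusted p = 0.00657, limma). UQCR-6.4, the smallest subunit, had 2.11, 2.87, 2.60 and 1.77 CPM on GlcNAc, against 3.49, 2.18, 2.62 and 2.59 CPM in controls. It was the only gene of complex III that did not pass the test, and its log2 fold change of -0.22 ± 0.23 rested on few reads (SE, adjusted p = 0.594, limma).

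Complex IV has its catalytic subunits in mitochondrial DNA, and its nuclear genes encode smaller subunits around them. Of the 7 such genes with values that the name rule took in, 4 fell and the median log2 fold change was -0.33. In 6 of the 7 the GlcNAc libraries lay below all controls. The count of 4 was 2 without GlcNAc replicate 4, without control replicate 1, without control replicate 2 and without control replicate 4, each left out in turn. In those fits 4.69 to 5.51% of all genes were lower. COX5B, a zinc-binding subunit on the matrix side, lies at chr2L:6557800-6559308 and had 174.9, 166.5, 169.0 and 174.9 CPM on GlcNAc, against 226.6, 231.4, 221.7 and 216.8 CPM in controls. Both groups were tight and far apart, and its log2 fold change of -0.39 ± 0.05 had the lowest adjusted p of the 56 genes (SE, 0.000821, limma).

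The subunit genes cype, COX7C and COX8 also fell. The gene cype, named for the cyclope mutation, encodes the COX6C-like subunit and had 88.3, 82.5, 81.3 and 84.0 CPM on GlcNAc, against 106.3, 111.9, 93.8 and 105.0 CPM in controls. COX7C had 34.7, 36.5, 33.3 and 31.7 CPM on GlcNAc, against 43.3, 43.1, 37.9 and 42.4 CPM in controls. The groups were separate for both, with log2 fold changes of -0.31 ± 0.07 and -0.29 ± 0.07 (SE, adjusted p = 0.0107 and 0.0224, limma). COX8 had 45.7, 40.5, 47.0 and 40.6 CPM on GlcNAc, against 53.2, 51.6, 49.2 and 64.6 CPM in controls, with a log2 fold change of -0.33 ± 0.09 (SE, adjusted p = 0.0431, limma). Its adjusted p was over 0.05 in 9 of 17 alternative fits, and that of COX7C in 6 of 17. For COX7C the closest control was replicate 3, which lay below the other controls.

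The other 3 genes of complex IV did not pass the test. COX7A, the most abundant of the 7, had 384.2, 381.7, 360.3 and 365.7 CPM on GlcNAc, against 418.7, 462.8, 409.3 and 409.2 CPM in controls. Its groups did not overlap, but its log2 fold change of -0.19 ± 0.06 was the smallest of the complex (SE, adjusted p = 0.0704, limma). The gene levy, which encodes the COX6A-like subunit and whose loss is known to cause paralysis and a short life in flies, had 10.2, 7.88, 8.51 and 8.76 CPM on GlcNAc, against 9.63, 11.4, 10.8 and 12.9 CPM in controls. COX4, in mammals a main site of regulation by ATP, had 2.52, 2.03, 2.50 and 1.67 CPM on GlcNAc, against 3.39, 3.19, 3.40 and 2.91 CPM in controls. GlcNAc replicate 1 overlapped the controls for levy, whereas the groups were separate for COX4. Their log2 fold changes were -0.33 ± 0.12 and -0.58 ± 0.20 (SE, adjusted p = 0.106 and 0.0759, limma).

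**Figure D3:**
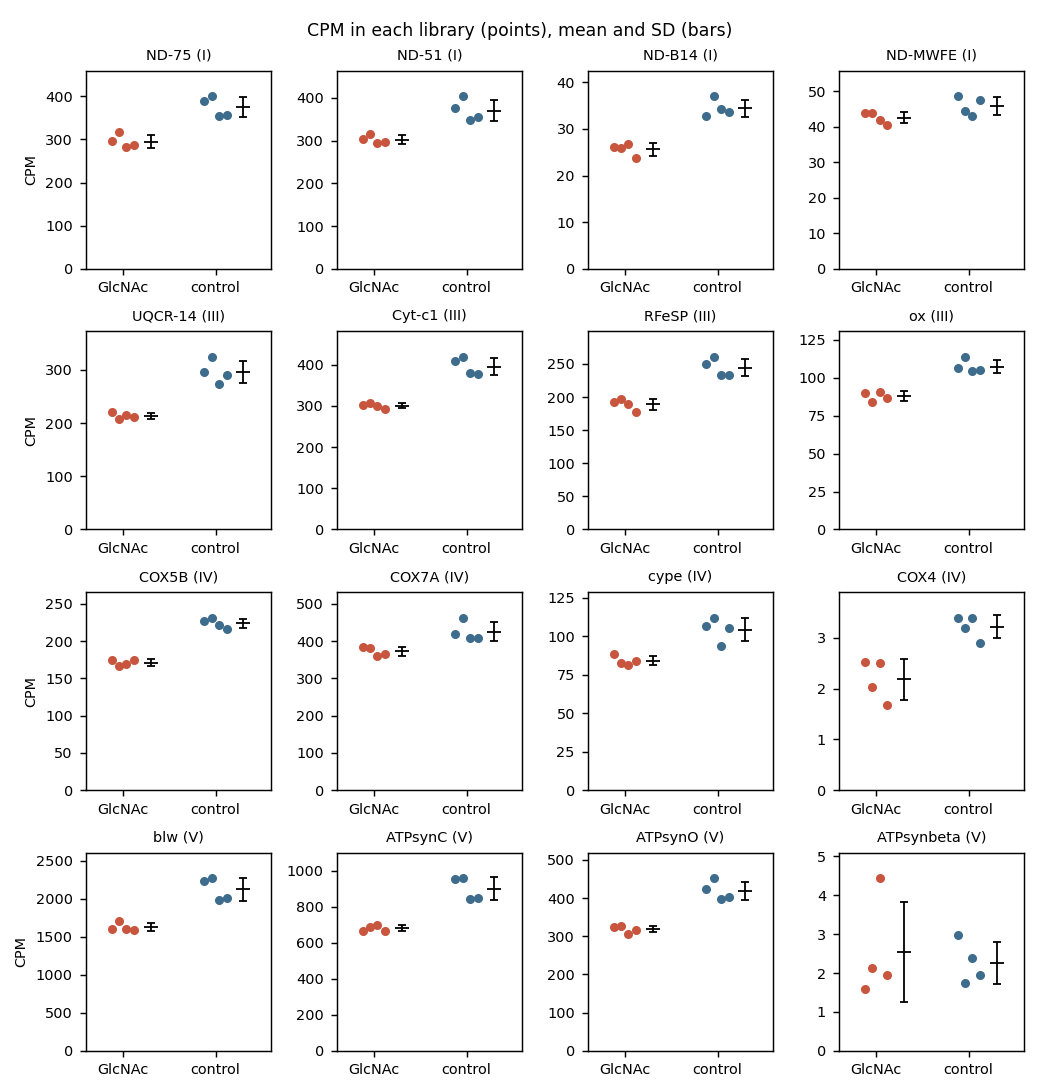
Points are the CPM of single libraries for 4 genes of each complex, with GlcNAc left of control, and bars show the mean and SD over 4 libraries. Each panel has its own CPM axis, which starts at 0. All GlcNAc libraries lie below all controls in every panel except those of ND-MWFE and ATPsynbeta, where the groups overlap.

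Complex V is a rotary enzyme with a catalytic head in the matrix (F1), a proton channel in the membrane (Fo) and a peripheral stalk that holds the head in place. Of its 10 genes with values that the name rule took in, 8 fell, none rose, and the median log2 fold change was -0.29. The count of 8 was 3 without GlcNAc replicate 4, 5 without control replicate 1 and 5 without control replicate 2. In those fits 4.69 to 5.51% of all genes were lower. By position, 2 of 3 genes of the head, 3 of 4 of the channel and all 3 of the stalk fell. The 2 genes of complex V that did not pass the test, ATPsynG and ATPsynbeta, were also its lowest in CPM.

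The gene blw encodes the alpha subunit of the head and had the highest level of the 56 genes. It had 1597, 1707, 1604 and 1594 CPM in the GlcNAc libraries, against 2238, 2267, 1984 and 2005 CPM in controls. All GlcNAc libraries lay below all controls, and the log2 fold change was -0.38 ± 0.08 (SE, adjusted p = 0.00925, limma). The beta subunit carries the catalytic sites and pairs with alpha in equal numbers. Its gene ATPsynbeta had only 1.59, 2.14, 4.43 and 1.96 CPM on GlcNAc, against 2.97, 1.73, 2.40 and 1.96 CPM in controls, or 15 to 43 reads per library. The fitted log2 fold change was 0.07, with a 95% interval of -0.65 to 0.80 (adjusted p = 0.92, limma), and it was -0.23 without GlcNAc replicate 3 and -0.04 without control replicate 2. ATPsyndelta, in the central stalk of the head, fell by 0.26 on the log2 scale.

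The membrane channel turns on a ring of c subunits. ATPsynC, which encodes this ring, lies at chr3R:31216145-31219630 and had 667.6, 688.9, 700.6 and 662.9 CPM on GlcNAc, against 953.8, 956.6, 842.6 and 845.3 CPM in controls. Its log2 fold change was -0.40 ± 0.07 (SE, adjusted p = 0.00358, limma), with no overlap of the groups. ATPsynF, a small membrane subunit, had 202.7, 211.5, 204.9 and 196.5 CPM on GlcNAc, against 250.0, 247.8, 232.0 and 226.8 CPM in controls. It also fell, by 0.23 on the log2 scale (adjusted p = 0.0211, limma), and did not pass in 5 of 17 alternative fits. ATPsynG, a membrane subunit linked to the pairing of ATP synthases in yeast and mammals, had 1.39, 1.20, 2.19 and 1.01 CPM on GlcNAc, against 1.82, 2.41, 2.95 and 2.17 CPM in controls. Its log2 fold change of -0.73 ± 0.29 was the most negative of all 56 genes, but with 10 to 26 reads per library the groups overlapped and it did not pass the test (SE, adjusted p = 0.126, limma).

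In the peripheral stalk, ATPsynO, the subunit that ties the stalk to the head, lies at chr3R:15265591-15266690. It had 324.0, 327.0, 307.3 and 317.3 CPM on GlcNAc, against 423.6, 451.7, 398.0 and 403.8 CPM in controls. The groups were well apart, with a log2 fold change of -0.39 ± 0.06 (SE, adjusted p = 0.00181, limma). ATPsynB and ATPsynCF6 of the same stalk fell by 0.28 and 0.30 on the log2 scale.

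Levels can be set side by side between genes only per length of transcript. By the median annotated transcript length, blw was the highest with 722 CPM per kilobase on GlcNAc and 943 in controls, followed by COX7A with 628 and 716 and by ATPsynC with 473 and 625. The median level was 96.4 CPM per kilobase on GlcNAc and 118 in controls for complex I, 235 and 307 for complex III, 94.6 and 119 for complex IV, and 354 and 420 for complex V. Within each complex the lowest gene lay more than an order of magnitude below the highest. ATPsynbeta, at 1.25 CPM per kilobase on GlcNAc and 1.12 in controls, lay far below its partner blw. Low values were not particular to respiratory genes: RpL32, a ribosomal protein gene often used as a reference, had 8.09 to 13.8 CPM on GlcNAc and 8.08 to 16.56 CPM in controls. The elongation factor gene eEF1alpha1 had 1.41 to 2.80 CPM on GlcNAc and 0.613 to 1.93 CPM in controls. Of 74 ribosomal protein genes, 12 had a mean under 20 CPM beside a median of 1030 CPM. The cause of these low values was not tested, so the low levels of ATPsynbeta, COX4, ATPsynG and UQCR-6.4 are those of the deposited values and not a measure of the subunits present.

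**Figure D4:**
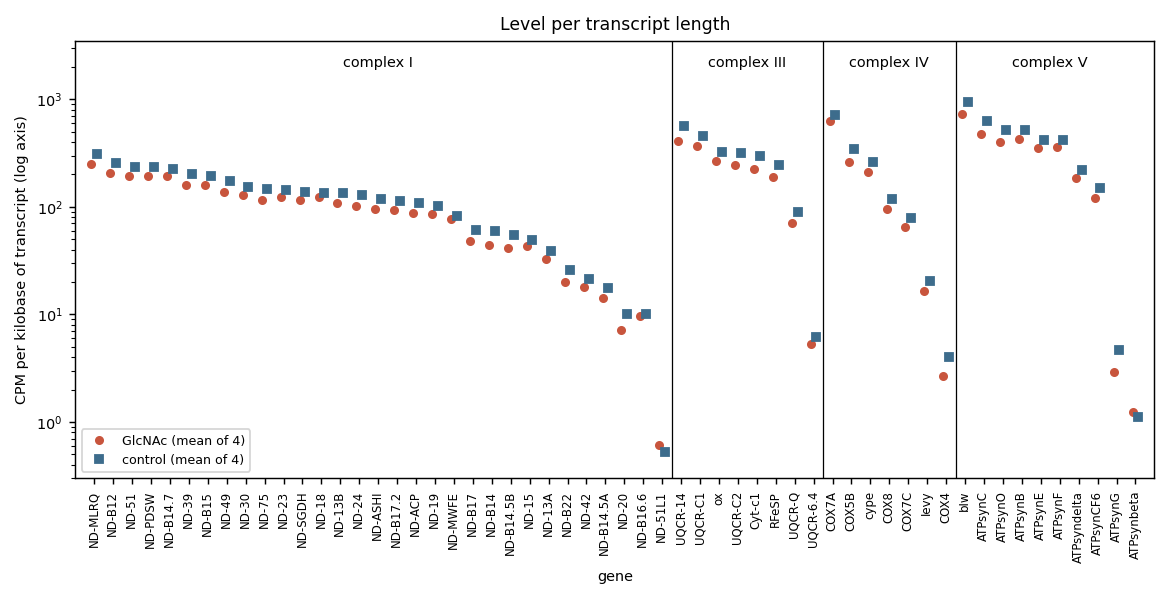
Mean CPM per kilobase of annotated transcript over 4 libraries is plotted on a log axis for each gene, ordered within each complex, with GlcNAc (circles) left of control (squares). The circles lie just below the squares for nearly all genes over the whole range of levels, with ND-51L1 and ATPsynbeta at the bottom as the exceptions.

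The libraries within each group were not alike for these genes. Over the 47 genes of at least 12 CPM, the median deviation from the control mean was -0.29, -0.26, -0.31 and -0.35 on the log2 scale in GlcNAc replicates 1 to 4, against 0.02, 0.09, -0.07 and -0.05 in control replicates 1 to 4. The median of all genes stayed within 0.02 of the control mean in each library. Control replicate 2 was the highest control for 35 of the 47 genes, and control replicate 3 the lowest for 30. GlcNAc replicate 4 was the lowest GlcNAc library for 26 and GlcNAc replicate 2 the highest for 22. Respiratory genes thus moved together also between libraries of 1 group, so the 56 genes are not 56 independent measurements. Control replicate 2 also had the smallest scaling factor of the 8 libraries, 0.937. Without it, 31 of the 56 genes fell, when 5.25% of all genes were lower.

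**Figure D5:**
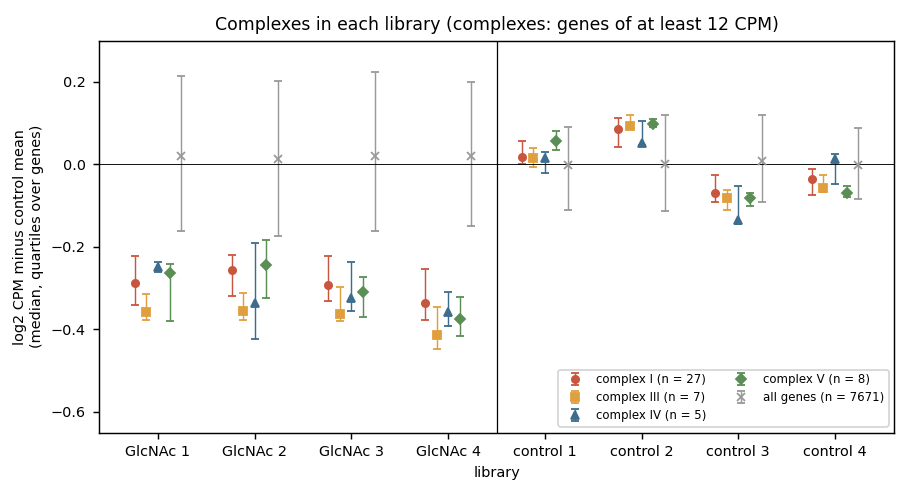
Points are medians over the genes of a complex of log2 CPM minus the control mean in each library, for genes of at least 12 CPM, with lines from the lower to the upper quartile, and crosses are the same for all 7671 genes. In the 4 GlcNAc libraries, on the left, the medians of the complexes lie between -0.41 and -0.24, and in the controls between -0.13 and 0.10, while the median of all genes stays close to 0.

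The count of genes that passed the test moved with the libraries used. Without GlcNAc replicate 4 it was 27 of 56, when 4.69% of all genes were lower. Without each of the other libraries in turn it was 31 to 39, when 4.97 to 6.45% of all genes were lower. The median log2 fold change of the 56 genes kept between -0.32 and -0.28 over these 8 fits. Of the 41 genes, 27 passed in each of the 8 fits, and ND-13A, an N module subunit with a log2 fold change of -0.25, passed in none of them.

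Other genes of the same pathway were listed by name for comparison. Complex II, succinate dehydrogenase, feeds electrons into the chain without pumping protons. Of its 4 listed genes the 3 with values fell, SdhA by 0.35, SdhB by 0.25 and SdhD by 0.32 on the log2 scale (adjusted p = 0.00919, 0.0107 and 0.00451, limma). Neither of the 2 listed cytochrome c genes had values. The gene sun, for the epsilon subunit of complex V that the name rule leaves out, had 145.9, 145.6, 146.9 and 139.4 CPM on GlcNAc, against 179.1, 187.9, 177.0 and 173.7 CPM in controls. It fell by 0.31 (adjusted p = 0.00292, limma), in the same range as the other ATP synthase genes. Of the 4 carrier genes with values, only Mpcp, the mitochondrial phosphate carrier, passed the test, with a log2 fold change of -0.39 (adjusted p = 0.00641, limma). The ADP/ATP carrier sesB had a log2 fold change of -0.33 and an adjusted p of 0.0505 (limma), and porin, the channel of the outer membrane, one of -0.16 with an adjusted p of 0.156 (limma).

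The genes that build or regulate the chain had smaller fold changes in these libraries. None of the 3 assembly genes with values, Scox, Surf1 and CIA30, passed the test, and their median log2 fold change was -0.02. None of 5 regulators passed it either, with a median of -0.02. These were srl, the fly PGC-1 coactivator, with Ets97D, ERR, TFAM and mtTFB2. The log2 fold change of srl was -0.14 ± 0.09 and that of ERR -0.20 ± 0.14 (SE, adjusted p = 0.355 and 0.396, limma). The difference between these genes and the subunit genes was not tested.

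The respiratory genes of mitochondrial DNA were measured in the same libraries. None of the 12 passed the test, 10 had a positive and 2 a negative log2 fold change, and the median was 0.12. Their summed level was 8277, 6825, 21785 and 11696 CPM in the GlcNAc libraries, against 11564, 8236, 12187 and 12019 CPM in controls. GlcNAc replicate 3 lay far above all other libraries, and the remaining GlcNAc libraries overlapped the controls. Without GlcNAc replicate 3 the median was -0.10 with 8 of the 12 genes negative, and still none passed the test. With standard errors of 0.21 to 0.53 for all libraries, a change of the size seen in the nuclear genes was not detectable at this spread. The nuclear genes in GlcNAc replicate 3, with a median deviation of -0.31, lay among those of the other GlcNAc libraries.

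These are whole intestines, so fewer cells of a type and less RNA per cell cannot be told apart. Of the 8 enterocyte markers with values 2 were lower on GlcNAc, beside 6.6% of all genes. These were Jon25Bi and Jon66Ci, which encode digestive proteases. The median log2 fold change of the 8 was -0.30 with 7 negative, and the exception was nub, a transcription factor gene of enterocytes, at 0.21 (adjusted p = 0.203, limma). The summed level of the 8, of which 6 are protease genes, was 41254 to 44974 CPM on GlcNAc and 48031 to 58300 CPM in controls. Of 9 enteroendocrine markers, 3 were higher, AstA, CCHa2 and Dh31, beside 8.75% of all genes. In all, 8 of the 9 had a positive log2 fold change, and AstC had one of -0.15 (adjusted p = 0.368, limma). The sum of the 9 was 323.5 to 366.3 CPM on GlcNAc and 273.9 to 343.2 CPM in controls. None of the 6 progenitor markers passed the test, with sums of 128.6 to 165.4 CPM on GlcNAc and 127.4 to 149.7 CPM in controls. Of 11 markers of the visceral muscle, a tissue rich in mitochondria, 10 had a negative log2 fold change, and the median was -0.17. Only Act57B passed the test, as a gene lower on GlcNAc, beside 6.6% of all genes. The sums were 1065 to 1482 CPM on GlcNAc and 1220 to 1717 CPM in controls. Fat body and Malpighian tubules had 2 of 4 and 1 of 3 listed markers with values, none past the test, with sums of 79.3 to 267.0 and 1.6 to 16.4 CPM on GlcNAc and 21.5 to 533.8 and 1.5 to 2.2 CPM in controls. The sums overlapped between the groups except for enterocytes, and the part of cell composition in the fall of the respiratory genes was not tested.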

How the data were processed

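Intestines of adult female flies were profiled by RNA-seq, with 4 GlcNAc and 4 control libraries. The authors prepared strand-specific libraries, trimmed reads with Trimmomatic, mapped them with TopHat 2.1.0 to the FlyBase genome, counted exonic reads with HTSeq and filtered out weakly expressed genes. The authors deposited log2 CPM, with an offset of 0.5 read and scaled library sizes. The table also holds their own fold changes, t statistics and p-values, which were not used.

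The worth of 1 read was recovered from the steps between low values, and all 61368 values came out whole within 0.01 read. Totals were 8839877 to 10326189 reads. Libraries of 1 group differed beyond sampling noise (chi-square per degree of freedom of 9.99 to 69.1) and were kept as separate replicates. The deposited values were fitted with limma 3.58.1 in R 4.3.3 (lmFit, eBayes with a trend, condition as the only term), and p-values were two-sided and adjusted over 7671 genes by the Benjamini-Hochberg method with a threshold of 0.05. The fit was also run on simulated counts of genes drawn independently. This does not cover genes that move together between libraries, and no conclusion is drawn from it. CPM are 2 to the power of the deposited values, and the SE of a log2 fold change is that of the fit.

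The genes and lists were chosen with earlier results of these data known. Values in every library are given for the 3 most and 2 least negative genes of each complex and for the genes that the name rule lists singly, and others are named by their fold change or with the reason for the choice. Gene positions and transcript lengths come from the Ensembl annotation of BDGP6. Promoter and protein sequences were not analysed here. Alternatives covered normalization, pseudocount, a filter of 10 CPM, voom weights, no trend, the replicate number as a block and each library left out.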

Additional observations from a re-analysis of the deposited data

Results flagged for a closer look

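Of 46 groups of 4 libraries examined for a single library far from the others, 2 held one, and chance gives about 1 in 20. COX7C in control replicate 3 had 37.9 CPM, against 42.4 to 43.3 CPM in the other controls. Its gap to the next control took up 0.833 of the range of the group. The gene blw in GlcNAc replicate 2 had 1707 CPM, against 1594 to 1604 CPM in the other GlcNAc libraries, a gap of 0.909 of the range. In both cases the library lay on the side of the other group, and the groups still did not overlap.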

How the results depend on the processing

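None of the genes rose under any of the 17 alternatives, of which the filter of 10 CPM tested 48 of the 56 genes. Of the 41 genes 27 passed the test in each one. The 14 that did not were ND-PDSW, ND-B17.2, ND-13A, ND-SGDH, ND-19, ND-B14.7, UQCR-C1, COX8, COX7C, ATPsynCF6, ATPsynB, ATPsynE, ATPsyndelta and ATPsynF. In the other direction, 4 genes that did not pass fell in some alternative. These were COX4, COX7A, ND-B14.5A and ND-23, all with quantile normalization. COX4 also fell without a trend, and ND-23 with a replicate block and without control replicate 3. The count of genes that fell was 27 to 39 with 1 library left out. It was 16 to 20 for complex I, 6 to 7 for complex III, 2 to 4 for complex IV and 3 to 8 for complex V. In these fits 4.69 to 6.45% of all genes were lower. Each of these fits has 1 library fewer, and the part of this in the lower counts was not tested. The medians with 1 library left out were -0.32 to -0.28 for all 56 genes, -0.31 to -0.26 for complex I, -0.37 to -0.32 for complex III, -0.36 to -0.28 for complex IV and -0.32 to -0.24 for complex V, the last without control replicate 2. With unscaled library totals, the median of all genes moved to 0.07, and the medians were -0.25 for the 56 genes, -0.24 for complex I, -0.29 for complex III, -0.27 for complex IV and -0.23 for complex V, with 35 genes lower and 2 in complex IV. Quantile normalization gave 45 genes lower and limma without a trend 36. Across all genes 5.32% were lower with library totals, 7.63% with quantile normalization and 5.38% without a trend. The sign turned for ATPsynbeta without GlcNAc replicate 3 (-0.23) and without control replicate 2 (-0.04), and for ND-B16.6 without GlcNAc replicate 3 (0.024), and the cause was not tested. With 1 library left out these genes ranged from -0.23 to 0.26 and from -0.13 to 0.024. For libraries with the same replicate number, deviations from the group mean correlated with r = 0.211, 0.397, 0.151 and -0.059 for numbers 1 to 4. GlcNAc replicates 1 and 2 correlated best with the control of their own number, and replicates 3 and 4 did not. These values do not settle whether the numbers pair the libraries. With a replicate block 40 of the respiratory genes were lower, with COX8 and ND-13A lost and ND-23 gained. Across all genes 578 were lower with the block, beside 506 without it. No member was an assembly factor, so an alternative restricted to structural subunits was the same as the result. The 9 genes under 12 CPM hold 9 to 121 reads per library, and the part of depth in their calls was not tested.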
